A study of Mus musculus with 6 samples.

Results

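Interferon-induced transmembrane (Ifitm) proteins are small membrane proteins that sit in the plasma membrane and in endosomes. They hinder the fusion of enveloped viruses with the membranes of the cell, and their genes respond to interferon in many cell types. The RNA of the 4 Ifitm genes that the deposited table lists, Ifitm1, Ifitm2, Ifitm3 and Ifitm6, is described here in F4/80+ cells of mouse bone marrow. They are 4 of 11489 genes in the table, all 4 passed the filter on low values, and they were taken by symbol. They were selected on their lower values in Epor-eGFP+ cells, which were known from an earlier look at these data. Their group difference is therefore given as a description, with no p-value.

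The samples were 6 sorted cell populations, 3 labelled F4/80+Epor-eGFP+ and 3 labelled F4/80+Epor-eGFP-. F4/80 is a macrophage surface protein encoded by Adgre1, and eGFP reports the erythropoietin receptor gene Epor. Both groups carry the labels of bone marrow macrophages and of erythroblastic island macrophages, the cells around which red cell precursors mature. Strain, age, sex, the design of the reporter allele and the number of animals are not stated by these labels, so the spread between libraries may be technical. Libraries are called by the numbers 0 to 2 of their columns, and 3 values for a group stand in that order.

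Levels are in FPKM, that is, fragments per kilobase of a gene relative to library size, which allows levels of different genes to be set side by side. Totals lay between 467176 and 519650 FPKM. Epor was at 3.43 to 7.78 FPKM in Epor-eGFP+ and at 0.217 to 0.414 FPKM in Epor-eGFP- libraries, in the direction of the labels. A summed list of 12 resident macrophage markers was at 2057 to 7383 FPKM in Epor-eGFP+ and at 259.5 to 306.8 FPKM in Epor-eGFP- libraries. In the latter, Adgre1 alone gave 131.6 to 139.2 FPKM of that sum, and it was at 116.9 to 241.1 FPKM in Epor-eGFP+ libraries. A list of 16 neutrophil markers summed to 20756 to 26547 and 26199 to 40524 FPKM in the same order. Granulocyte transcripts were thus abundant in both groups. Apart from Adgre1, the resident macrophage markers were lower in Epor-eGFP- than in Epor-eGFP+ cells, although both groups carry the macrophage label. Their Epor-eGFP- means ran from 0.514 FPKM for Timd4 to 31.8 FPKM for Vcam1. Epor-eGFP- library 2 stood apart with Lyz2 listed at 0 FPKM, against 10411 and 10692 FPKM in libraries 0 and 1, and Epor-eGFP+ library 0 had Prg2 listed at 0 FPKM.

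The 4 genes lie in 1 cluster, within 63.1 kb of mouse chromosome 7 (GRCm38, GENCODE M21). Ifitm5, at 140948958 to 140950243 in RefSeq, lies next to Ifitm2 but has no values here. It is counted below among the genes around the cluster. In order along the chromosome, Ifitm2 spans 140954837 to 140955987 on the minus strand, and Ifitm1 spans 140967221 to 140969825 on the plus strand. Ifitm3 spans 141009586 to 141010770 and Ifitm6 spans 141015699 to 141017924, both on the minus strand. Ifitm3 and Ifitm6 are the closest pair, 4.9 kb apart, while 39.8 kb separate Ifitm1 from Ifitm3. Annotated transcripts have 2 or 3 exons, and FPKM values are for whole genes. The coding sequences hold 106 codons for Ifitm1, 144 for Ifitm2, 137 for Ifitm3 and 124 for Ifitm6, counted without the stop codon.

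The promoter windows are shown because the 4 genes sit side by side and were all lower in the same libraries. Their windows differ in the letters that interferon-activated factors are known to bind. Each window of 300 bases lies around a RefSeq start site (GRCm38.p6), mostly before it, read 5′ to 3′ along the gene, and all 4 genes were matched by symbol. Capitals mark GAAANNGAA, the core of the interferon-stimulated response element.

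Ifitm1 (chr7:140967826-140968125, plus strand): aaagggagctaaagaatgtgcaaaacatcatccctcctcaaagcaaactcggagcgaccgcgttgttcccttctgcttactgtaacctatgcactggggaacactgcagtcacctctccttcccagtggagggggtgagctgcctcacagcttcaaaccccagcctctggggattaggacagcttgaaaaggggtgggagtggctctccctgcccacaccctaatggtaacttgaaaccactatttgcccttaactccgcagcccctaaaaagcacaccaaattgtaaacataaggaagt
Ifitm2 (chr7:140955912-140956211, minus strand): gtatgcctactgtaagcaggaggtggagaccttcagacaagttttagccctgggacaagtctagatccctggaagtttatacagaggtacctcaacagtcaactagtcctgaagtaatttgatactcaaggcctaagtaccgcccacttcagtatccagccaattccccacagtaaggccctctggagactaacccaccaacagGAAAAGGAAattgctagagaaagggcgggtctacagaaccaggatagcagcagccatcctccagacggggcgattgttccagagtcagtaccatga
Ifitm3 (chr7:141010695-141010994, minus strand): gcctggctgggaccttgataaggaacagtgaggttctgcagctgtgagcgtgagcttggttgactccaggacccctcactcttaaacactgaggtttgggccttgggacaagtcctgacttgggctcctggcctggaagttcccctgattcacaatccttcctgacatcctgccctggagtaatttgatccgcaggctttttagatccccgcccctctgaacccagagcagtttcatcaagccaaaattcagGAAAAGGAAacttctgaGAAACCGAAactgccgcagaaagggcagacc
Ifitm6 (chr7:141016843-141017142, minus strand): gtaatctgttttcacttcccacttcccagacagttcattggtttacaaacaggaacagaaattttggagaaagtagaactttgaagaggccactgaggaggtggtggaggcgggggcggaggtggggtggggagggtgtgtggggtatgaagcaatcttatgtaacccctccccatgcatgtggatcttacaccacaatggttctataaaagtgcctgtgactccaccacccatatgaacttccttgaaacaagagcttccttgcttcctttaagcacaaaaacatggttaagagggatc

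The Ifitm3 window held 2 matches to GAAANNGAA, at positions 3 to 11 and 20 to 28 after the start site, where the first base of the transcript is position 1. The Ifitm2 window held 1 match, from position −46 to −38, with the same 9 letters as the former of the Ifitm3 matches. The Ifitm1 and Ifitm6 windows held none. Both of these windows lie inside the gene spans given above, so annotated starts further upstream were not searched. The same holds for Ifitm2, whose RefSeq span reaches upstream of its window, to 140959686. Both strands were searched, and 8.56% of 32851 promoter windows of the same length (300 bases) held this motif. The motif TTCNNNGAA, the letters of the gamma-activated site, reads the same on both strands and occurred in 8.30% of windows. It was present once in Ifitm3, at positions 14 to 22 and so overlapping the later GAAANNGAA match, and once in Ifitm6, at −10 to −2. Neither GAGGAA, a core of PU.1 sites (28.3% of windows), nor TTGCNNAA, a core of C/EBP sites (10.8%), occurred on either strand of any of the 4 windows. A match shows letters, not a bound site, and the absence of a match covers these windows alone.

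All 4 Ifitm genes had lower mean FPKM in Epor-eGFP+ than in Epor-eGFP- cells, and the size of the difference varied from gene to gene. The Epor-eGFP- mean was 6.62 times the Epor-eGFP+ mean for Ifitm6, 3.93 times for Ifitm3, 1.90 times for Ifitm2 and 1.73 times for Ifitm1. The groups did not overlap for Ifitm2, Ifitm3 and Ifitm6 and overlapped for Ifitm1. Of 10964 tested genes, 31.9% were lower in Epor-eGFP+ with no overlap, beside 3 of the 4 Ifitm genes. By the limma test with an adjusted p threshold of 0.05, 26.3% of tested genes were lower and 22.7% higher in Epor-eGFP+, and all 4 Ifitm genes were among the lower ones. Nothing is read from these counts, since the genes were selected on this contrast. In bulk samples, fewer cells of a type and less RNA per cell cannot be told apart.

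**Figure D1:**
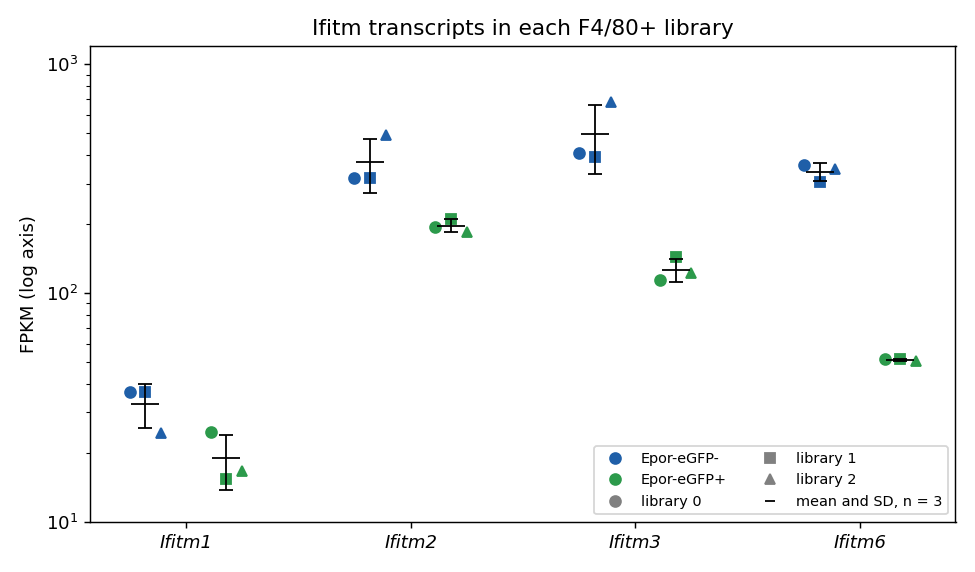
FPKM of the 4 Ifitm genes on a log axis, with 1 symbol per library (shape for the library number, colour for the group) and bars for the mean and SD of 3 libraries. The groups are apart for Ifitm2, Ifitm3 and Ifitm6 and overlap for Ifitm1, and the Epor-eGFP+ libraries of Ifitm6 lie between 50.4 and 51.5 FPKM.

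Ifitm6 is a family member of mice about which less is known than about its neighbours. It was at 362, 304 and 349 FPKM in Epor-eGFP- cells, and at 51.5, 51.3 and 50.4 FPKM in Epor-eGFP+ cells. Every Epor-eGFP- library was thus far above every Epor-eGFP+ library, and the Epor-eGFP+ libraries were nearly equal. Group means were 338 ± 30.7 and 51.1 ± 0.577 FPKM (SD, n = 3 per group), a log2 fold change on the FPKM + 1 scale of −2.70 (SE 0.084), Epor-eGFP+ over Epor-eGFP-. Of all tested genes, 5 had a lower log2 fold change. The coefficient of variation was 1.13% in Epor-eGFP+ and 9.07% in Epor-eGFP- libraries.

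Ifitm3, the family member best known for restricting influenza virus from endosomes, had the highest mean of the 4 in Epor-eGFP- cells. It was at 411, 391 and 685 FPKM in Epor-eGFP- cells, and at 114, 143 and 122 FPKM in Epor-eGFP+ libraries. The lowest Epor-eGFP- library was above the highest Epor-eGFP+ library, and Epor-eGFP- library 2 was well above the other two of its group. Means were 496 ± 164 and 126 ± 14.9 FPKM, with a log2 fold change of −1.92 (SE 0.22), or −1.67 without Epor-eGFP- library 2. A lower log2 fold change was found for 43 of the tested genes.

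Ifitm2, a close relative of Ifitm3 that also resides in endosomal membranes, was at 316, 316 and 487 FPKM in Epor-eGFP- cells. In Epor-eGFP+ libraries it was at 194, 211 and 185 FPKM. As for Ifitm3, Epor-eGFP- library 2 was the highest of all and the groups were apart. Means were 373 ± 98.8 and 197 ± 12.8 FPKM, with a log2 fold change of −0.89 (SE 0.18), or −0.68 without Epor-eGFP- library 2. For 635 tested genes the log2 fold change was lower than for Ifitm2.

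Ifitm1, which is found mainly at the cell surface, was the least abundant of the 4 in every library. It was at 36.92, 36.94 and 24.5 FPKM in Epor-eGFP- cells, and at 24.7, 15.3 and 16.6 FPKM in Epor-eGFP+ libraries. Epor-eGFP- library 2 was the lowest of its group and fell just under Epor-eGFP+ library 0, so the groups overlapped. Means were 32.8 ± 7.19 and 18.9 ± 5.08 FPKM, with a log2 fold change of −0.77 (SE 0.22). For 860 tested genes it was lower. Ifitm1 was no longer past the threshold in 4 of 15 alternatives. These left out Epor-eGFP- library 0 or 1 or Epor-eGFP+ library 1 or 2, with log2 fold changes between −0.70 and −0.64. Ifitm1 was selected on this contrast, so the threshold describes its values and tests nothing. Its log2 fold change was −0.96 without Epor-eGFP- library 2 and −0.97 without Epor-eGFP+ library 0.

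Libraries with the same column number deviated together across genes, so the ratio was also taken within each number. The ratio of the Epor-eGFP- to the Epor-eGFP+ library was 7.04, 5.92 and 6.92 for Ifitm6 at numbers 0, 1 and 2, and 3.603, 2.74 and 5.62 for Ifitm3. It was 1.63, 1.501 and 2.63 for Ifitm2 and 1.49, 2.41 and 1.47 for Ifitm1. Each gene was thus lower in the Epor-eGFP+ library at each of the 3 numbers. For Ifitm2, Ifitm3 and Ifitm6 any pairing of libraries gives this, since their groups do not overlap. The order Ifitm6, Ifitm3, then the others held at each number.

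The family's summed FPKM was 1126, 1048 and 1545 in Epor-eGFP- cells and 384, 420.1 and 374 in Epor-eGFP+ libraries. Its make-up differed between the groups as well as its total. Ifitm2 made up 50.1% ± 0.501 of the sum in Epor-eGFP+ and 29.9% ± 1.74 in Epor-eGFP- libraries (SD, n = 3 per group). Ifitm6 made up 13.03% ± 0.701 and 27.9% ± 4.89, Ifitm3 32.1% ± 2.22 and 39.4% ± 4.30, and Ifitm1 4.84% ± 1.43 and 2.80% ± 1.06, in the same order. The level of Ifitm3 was 1.24 to 1.405 times that of Ifitm2 in Epor-eGFP- libraries and 0.587 to 0.678 times in Epor-eGFP+ libraries. The leading gene by FPKM was therefore Ifitm3 in each Epor-eGFP- library and Ifitm2 in each Epor-eGFP+ library.

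**Figure D2:**
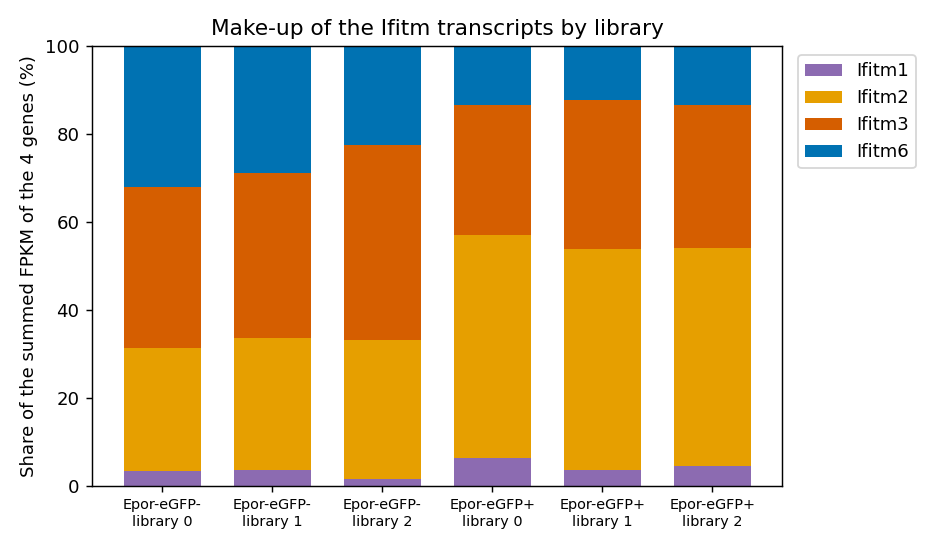
Stacked bars of the share of each gene in the summed FPKM of the 4 Ifitm genes, in percent, with 1 bar per library. The Ifitm2 share is near 50.1% in Epor-eGFP+ and near 29.9% in Epor-eGFP- libraries, and the Ifitm6 share is larger in each Epor-eGFP- library.

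Within Epor-eGFP+ cells the order of levels was Ifitm2, Ifitm3, Ifitm6, Ifitm1, with ranges over libraries that did not overlap between any neighbours in that order. Within Epor-eGFP- cells the range of Ifitm2 (316 to 487 FPKM) overlapped those of Ifitm3 (391 to 685 FPKM) and Ifitm6 (304 to 362 FPKM), which did not overlap each other. Ifitm2 was above Ifitm6 in Epor-eGFP- libraries 1 and 2 and below it in library 0, so their order there is not settled beyond the spread. Ifitm1 was below the other 3 in both groups.

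Reads from similar genes are shared out by estimation, which can move values between family members, so the transcripts were compared. The longest stretch with identical bases was 69 bases between Ifitm2 and Ifitm3 and 64 bases between Ifitm1 and Ifitm3. For Ifitm1 and Ifitm2 it was 40 bases. Ifitm6 shared at most 25 bases in a row with any of the other 3, and its coding sequence was 65.9% to 68.8% identical to theirs. The coding sequences of Ifitm1, Ifitm2 and Ifitm3 were 80.8% to 81.9% identical to each other. The Ifitm6 values thus rest on sequence that is the most distinct in the family, and the split between Ifitm1, Ifitm2 and Ifitm3 is less certain. The labels give no read length, so the part of shared reads was not tested.

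The genes around the cluster were examined within 100 kb on either side. Of 17 other annotated genes there, 7 were tested, 4 of these were lower in Epor-eGFP+ (limma, adjusted p threshold 0.05), none was higher and 3 were not called. At an unadjusted p below 0.05, 5 of them were lower and 0 higher. Past the adjusted threshold, 26.3% of all tested genes were lower and 22.7% higher. The log2 fold changes of the 7 neighbours ran from −1.18 to 0.019, all smaller in size than those of Ifitm3 and Ifitm6. That of −1.18 was larger in size than those of Ifitm2 (−0.89) and Ifitm1 (−0.77). Pkp3, which encodes the desmosomal protein plakophilin 3, fell most, from 5.19 ± 0.668 to 1.73 ± 0.0946 FPKM (−1.18 on the log2 scale, SE 0.11, limma adjusted p = 0.000549). Sigirr, an inhibitory receptor of the interleukin 1 receptor family, fell from 7.32 ± 0.843 to 5.39 ± 0.217 FPKM (−0.38, SE 0.098, adjusted p = 0.0180), and was called in 11 of 15 alternatives. Pgghg, listed as Athl1, fell from 11.1 ± 0.366 to 7.60 ± 0.298 FPKM (−0.49, SE 0.071, adjusted p = 0.00204) and Ric8a, listed as Ric8, from 36.8 ± 2.08 to 25.3 ± 1.30 FPKM (−0.52, SE 0.075, adjusted p = 0.00203). Bet1l, Sirt3 and Psmd13 were not called, with log2 fold changes of −0.25, 0.019 and −0.035. No neighbour listed in the table lies between the 4 genes.

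**Figure D3:**
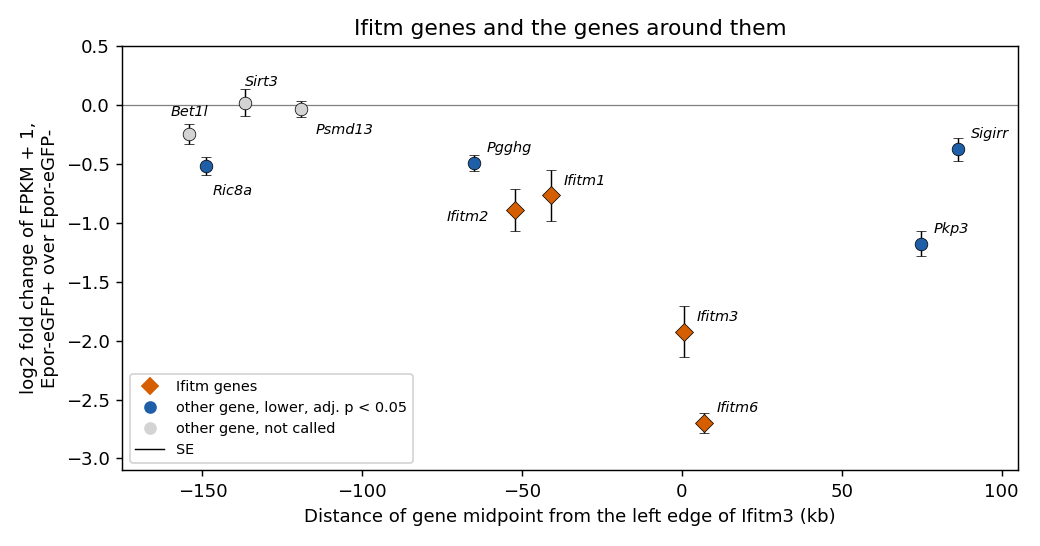
Log2 fold change on the FPKM + 1 scale, Epor-eGFP+ over Epor-eGFP-, against the distance of the RefSeq gene midpoint from the left edge of Ifitm3 in kb, with bars for the SE. Ifitm6 and Ifitm3 are lowest at −2.70 and −1.92, and of the other genes Pkp3 is lowest at −1.18.

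Interferons act through receptors, JAK kinases and STAT and IRF factors, which then switch on antiviral genes, the Ifitm genes among them. Of 23 genes of interferon signalling, 15 fell in Epor-eGFP+ cells, none rose and 8 were not called (limma, adjusted p threshold 0.05). At an unadjusted p below 0.05, 17 were lower and 1 higher. The median log2 fold change was −0.53, beside −0.01 over all tested genes, of which 26.3% were lower and 22.7% higher past the adjusted threshold. Usp18, which dampens the type I interferon receptor, fell from 13.002 ± 3.01 to 5.09 ± 1.12 FPKM (−1.19 on the log2 scale, SE 0.19, limma adjusted p = 0.00282). Irf9, a DNA-binding factor of the type I interferon response, fell from 44.2 ± 9.91 to 23.7 ± 3.90 FPKM (−0.87, SE 0.18). Irf7, a master regulator of type I interferon genes, fell from 68.5 ± 17.7 to 36.9 ± 5.33 FPKM (−0.85, SE 0.19), and Irf2 from 54.8 ± 7.49 to 30.4 ± 3.10 FPKM (−0.83, SE 0.12). Among these 4 genes the adjusted p was lowest for Irf2 (0.00209) and highest for Irf7 (0.0107). Il10rb, named after its values were seen, was the gene with the most positive log2 fold change, at 0.64 (SE 0.24, adjusted p = 0.0634). With the replicate block it was called higher (0.0237), and its adjusted p ran from 0.00991 to 0.154 over 15 alternatives.

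Of 33 tested interferon-induced antiviral genes, 20 fell, none rose and 13 were not called, with a median log2 fold change of −0.56. By limma's unadjusted p, 22 were below 0.05 on the lower side and 0 on the higher side. Without Epor-eGFP+ library 0, 13 of them fell. With all libraries kept, 26.3% of all tested genes were lower and 22.7% higher past the adjusted threshold. Samhd1, which depletes the nucleotides that reverse transcription needs, was at 289, 261 and 365 FPKM in Epor-eGFP- cells and at 88.5, 96.2 and 90.4 FPKM in Epor-eGFP+ libraries. The groups were apart, and the log2 fold change of −1.71 (SE 0.13, limma adjusted p = 0.000342) was the largest fall in the list. Oas3, a sensor of double-stranded RNA, fell from 19.8 ± 6.57 to 5.97 ± 1.08 FPKM (−1.55, SE 0.22). Mx1, a GTPase that blocks influenza virus, fell from 15.2 ± 4.15 to 4.70 ± 1.34 FPKM (−1.497, SE 0.22), and Zbp1, a sensor of nucleic acids in the Z form, from 41.4 ± 13.1 to 13.8 ± 1.80 FPKM (−1.48, SE 0.21). Adjusted p of Oas3, Mx1 and Zbp1 ran from 0.00190 to 0.00233. Bst2, the membrane tether of budding viruses and named after its values were seen, was at 68.3 FPKM in Epor-eGFP- and 80.5 FPKM in Epor-eGFP+ cells (log2 fold change 0.23, adjusted p = 0.452). With the replicate block Bst2 was called higher (0.0338), and its adjusted p ran from 0.0338 to 0.971 over 15 alternatives.

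Ifitm proteins are palmitoylated by Zdhhc enzymes, and Ifitm3 is known to carry an endocytic signal read by the AP-2 adaptor and to be ubiquitinated by Nedd4. Of 18 tested genes for such modification, sorting and partner proteins, 3 rose, 2 fell and 13 were not called, with a median log2 fold change of 0.04. At limma's unadjusted p below 0.05, 3 were higher and 5 lower. Past the adjusted threshold, 22.7% of all tested genes were higher and 26.3% lower. Cd81, a tetraspanin, was at 144, 117 and 229 FPKM in Epor-eGFP+ cells and at 52.1, 49.97 and 36.5 FPKM in Epor-eGFP- libraries. It thus rose in cells where the Ifitm genes were lower (log2 fold change 1.76, SE 0.25, limma adjusted p = 0.00206). Vcp, an ATPase that extracts ubiquitinated proteins, rose by 0.37 (SE 0.073), and Zdhhc7 and Zdhhc20 fell by 0.47 (SE 0.095) and 0.41 (SE 0.074) on the log2 scale, with adjusted p from 0.00460 to 0.00696. Nedd4 was at 54.2 and 56.3 FPKM in Epor-eGFP- and Epor-eGFP+ cells and was not called. Without Epor-eGFP- library 2, 4 genes of this list fell.

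**Figure D4:**
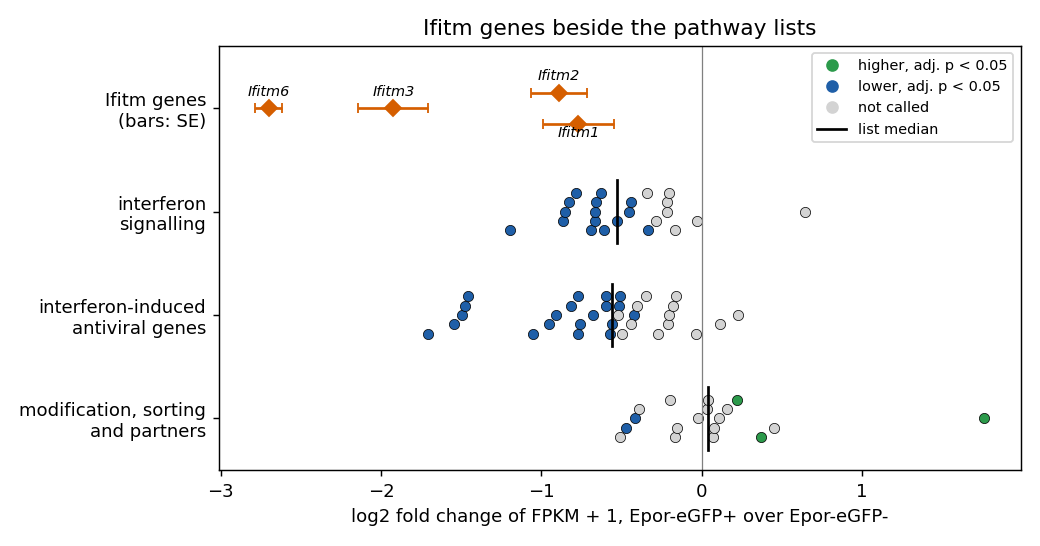
Log2 fold changes on the FPKM + 1 scale, Epor-eGFP+ over Epor-eGFP-, of the 4 Ifitm genes (diamonds with SE) above the tested genes of 3 lists (circles, coloured by call, with a line at the list median). The medians are −0.53 for signalling, −0.56 for antiviral genes and 0.04 for modification, sorting and partners, and no gene of these lists is below −1.71.

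The spread inside each group is separate from the difference between the group means, and there the family divided. Deviations are log2(FPKM + 1) minus the mean of the group. In Epor-eGFP- libraries 0, 1 and 2, Ifitm3 deviated by −0.22, −0.29 and 0.51 and Ifitm2 by −0.21, −0.21 and 0.42. Ifitm1 deviated by 0.19, 0.19 and −0.38, so it was low in the library where Ifitm2 and Ifitm3 were high. In Epor-eGFP+ libraries 0, 1 and 2, Ifitm3 deviated by −0.14, 0.18 and −0.04, Ifitm2 by −0.02, 0.10 and −0.08, and Ifitm1 by 0.40, −0.25 and −0.14. Ifitm6 stayed within −0.15 to 0.10 in all 6 libraries.

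Marker lists were set beside these deviations, and those named here were picked after their values were seen. The median deviation of 15 monocyte genes was −0.08, −0.26 and 0.33 in Epor-eGFP- and −0.11, 0.15 and −0.12 in Epor-eGFP+ cells, highest in the libraries where Ifitm3 was highest. That of 7 B lineage genes was 0.39, −1.02 and 0.50 in Epor-eGFP- and −0.20, 0.12 and 0.10 in Epor-eGFP+ libraries. The B lineage median was thus highest in the same libraries, so this trait was not particular to the monocyte list. The median of 33 antiviral genes was −0.27, −0.05 and 0.25 in Epor-eGFP- and −0.12, 0.03 and 0.16 in Epor-eGFP+ libraries. It was highest where Ifitm3 was highest in Epor-eGFP- cells but not in Epor-eGFP+ cells. The median of 9 eosinophil genes was 0.25, 0 and −0.33 in Epor-eGFP- and 0.40, −0.22 and −0.20 in Epor-eGFP+ libraries, with the highest and lowest libraries of Ifitm1 at its ends in Epor-eGFP+. That of 5 basophil and mast cell genes was −0.10, 0.46 and −0.36, and 0.32, −0.20 and −0.16. With 3 libraries a group these are descriptions of single libraries.

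**Figure D5:**
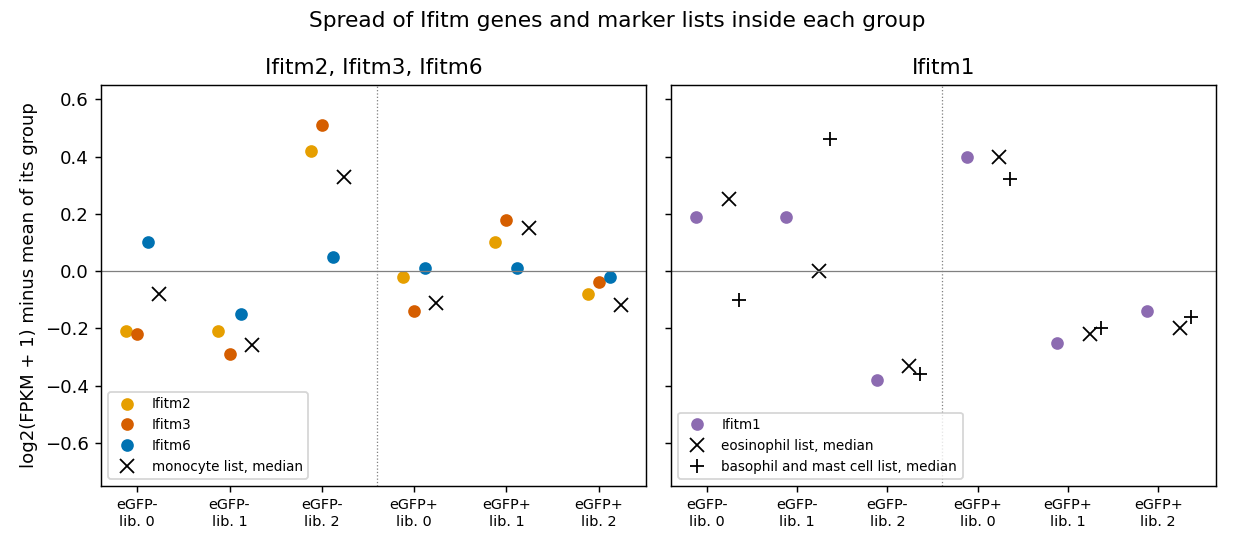
Deviation of each library from the mean of its group, on the log2(FPKM + 1) scale, for Ifitm2, Ifitm3 and Ifitm6 beside the median of the monocyte list (left) and for Ifitm1 beside the medians of the eosinophil list and of the basophil and mast cell list (right). Ifitm3 is highest in Epor-eGFP- library 2 (0.51), where Ifitm1 is lowest (−0.38).

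Markers of other cells also differed between the groups, some in the direction of the Ifitm genes and some in the opposite one. Over all tested genes, 26.3% were lower and 22.7% higher in Epor-eGFP+ cells (limma, adjusted p threshold 0.05). Of 15 monocyte genes, 12 fell and none rose, and their sum was 3525 to 4989 FPKM in Epor-eGFP- and 1665 to 1894 FPKM in Epor-eGFP+ libraries, with no member listed at 0. Of 16 neutrophil genes, 11 fell and 4 rose, with the sums given above. The 4 that rose were Elane, Ctsg, Prtn3 and Mpo, with log2 fold changes of 2.16 to 2.33. Without Epor-eGFP- library 2 the lowest neutrophil sum in Epor-eGFP- cells was 36267 FPKM, above all Epor-eGFP+ libraries. Of 9 eosinophil genes, 5 fell and 2 rose, with sums of 13632 to 22167 and 6968 to 15389 FPKM, overlapping. The sum of 6968 FPKM was that of Epor-eGFP+ library 0, where Prg2, a granule protein gene, was listed at 0, and the other 2 Epor-eGFP+ libraries were at 14542 and 15389 FPKM. With Prg2 left out, the remaining 8 eosinophil genes summed to 6065 to 10053 FPKM in Epor-eGFP- cells and to 6968, 4193 and 4302 FPKM in Epor-eGFP+ cells, so library 0 was then the highest of its group. Of 5 basophil and mast cell genes, 3 fell and none rose, with sums of 551 to 974 and 253 to 387 FPKM. Of 12 resident macrophage genes 11 rose, and of 12 erythroid genes 7 rose, the latter with sums of 49.3 to 406 and 369 to 1137 FPKM. The erythroid sum of 406 FPKM was that of Epor-eGFP- library 2, and without it the Epor-eGFP- libraries were at 49.3 and 69.96 FPKM, below all Epor-eGFP+ libraries. These values without a library or gene were chosen after seeing the data. By limma's unadjusted p, the monocyte list and the basophil and mast cell list had 0 genes higher as well. The part of these cells in the Ifitm differences was not tested.

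Lists for lymphocytes and other lineages moved less uniformly. Sums in Epor-eGFP- and Epor-eGFP+ libraries were 106 to 369.6 and 156 to 218 FPKM for 7 B lineage genes, and 57.2 to 98.6 and 203 to 258 FPKM for 7 T and NK genes. The higher T and NK sum came from Nkg7, a granule membrane protein gene, at 45.9 to 87.6 FPKM in Epor-eGFP- and 199 to 254 FPKM in Epor-eGFP+ cells. Without Nkg7 the other 6 genes summed to 11.02 to 25.2 and 3.94 to 4.34 FPKM, lower in Epor-eGFP+ cells, with Il2rb, Gzma, Klrb1c and Ncr1 called lower. Sums were 31.7 to 90.2 and 80.4 to 170.4 FPKM for 5 megakaryocyte genes and 10.6 to 11.8 and 25.9 to 32.01 FPKM for 4 dendritic cell genes. Stem and progenitor genes (6 genes, 64.8 to 125 and 65.1 to 90.3 FPKM) and endothelial and stromal genes (3 genes, 24.6 to 30.7 and 25.0 to 28.7 FPKM) overlapped between the groups. The latter sum was mostly Pecam1, with means of 26.9 FPKM in Epor-eGFP- and 20.5 FPKM in Epor-eGFP+ cells, not called. Means in the same order were 0.779 and 3.98 FPKM for Cxcl12 and 0.150 and 1.94 FPKM for Col1a1, both called higher. Without Epor-eGFP- library 2 the stem and progenitor sums no longer overlapped, at 101 to 125 FPKM in Epor-eGFP- cells. Over all tested genes, 22.7% were called higher and 26.3% lower. Called genes numbered 1 higher among B lineage genes, 1 higher and 4 lower among 5 tested T and NK genes, and 1 higher among megakaryocyte genes. There were 2 higher of 2 tested dendritic cell genes, 2 lower of 5 tested stem and progenitor genes and 2 higher of 3 endothelial and stromal genes.

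The genes whose pattern was most like that of each Ifitm gene were found by Pearson correlation of log2(FPKM + 1) over the 6 libraries. The libraries fall into 2 groups, so any gene that differs between the groups scores high, and no p is given. For Ifitm6 they were Limd2 (r = 0.9995), Rnf31, which encodes a ubiquitin ligase of the linear ubiquitin complex, Akna, Pias3 and Dbnl. For Ifitm3 they were Csf2ra (r = 0.9997), the alpha chain of the GM-CSF receptor, Nlrp3, the inflammasome sensor, Slc2a6, Serp1 and Galnt9. For Ifitm2 they were Arid5a (r = 0.9988), Stam2, Plekha1, Zfp87 and F8a. For Ifitm1 they were Il5ra (r = 0.9937), the alpha chain of the interleukin 5 receptor and a member of the eosinophil list, Csf1, Ankrd9, Il1rl1, the interleukin 33 receptor, and Eid1. No gene was named for more than 1 Ifitm gene.

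Between the Ifitm genes themselves, r over the 6 libraries was highest for Ifitm2 with Ifitm3 (0.983) and for Ifitm3 with Ifitm6 (0.966). It was lowest for Ifitm1 with Ifitm2 (0.547) and with Ifitm3 (0.641), and 0.803 for Ifitm1 with Ifitm6. Csf2ra was at 173 ± 17.6 FPKM in Epor-eGFP- and 115 ± 3.37 FPKM in Epor-eGFP+ cells, and Nlrp3 at 13.4 ± 3.43 and 4.54 ± 0.409 FPKM. Il5ra was at 14.0 ± 1.96 and 9.18 ± 2.00 FPKM. The likeness is one of profile and not of size, since the log2 fold change was −0.58 for Csf2ra and −1.92 for Ifitm3.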

How the data were processed

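RNA of 6 sorted cell populations was sequenced after TruSeq RNA library preparation, per the labels' protocols. The authors deposited 1 table of FPKM values, whose unit is taken from the table's name. The submitters' processing notes name Cufflinks 2.2.1, TopHat2 2.1.0, Trimmomatic 0.35 and bcl2fastq 2.19.1.403, and the build mm10, with no role or order. The annotation, any filter and any further scaling are not stated there. FPKM values hold no counts, so the depth is unknown and intervals for counting error cannot be given.

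Columns were assigned to groups by name, not to single samples. A mean of 1 FPKM or more was required for testing (10964 of 11489 genes). The test was limma 3.58.1 in R 4.3.3 on log2(FPKM + 1), with group as its single term, a mean-variance trend, two-sided tests and Benjamini-Hochberg adjustment over all tested genes. Fold changes on this scale understate those of low genes. Ifitm genes, the 15 gene lists, the motifs and the rules were chosen with earlier results of these data known. Named from the 3 pathway lists were up to 4 called genes with the largest absolute log2 fold change, then the 5 genes of highest correlation per Ifitm gene (no predicted genes), and genes within 100 kb. Lists were counted with no set test. Same-numbered libraries deviated together in the data (correlations 0.25, 0.38 and 0.35), although no label says what the column numbers mark, so a fit with the number as a replicate block was an alternative. Others were pseudocounts, filters, scalings, no trend and each library left out. The fit was checked on simulated data. Sequences are from RefSeq (GRCm38.p6) and GENCODE M21, positions in the text 1-based. Protein sequences were not used here.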

Additional observations from a re-analysis of the deposited data

How the results depend on the processing

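All 4 Ifitm genes kept a negative log2 fold change in each of 15 alternatives, from −0.97 to −0.64 for Ifitm1, −0.996 to −0.68 for Ifitm2, −2.07 to −1.67 for Ifitm3 and −2.77 to −2.58 for Ifitm6. Only Ifitm6 moved by more than its replicate SD of 0.0951, to −2.60 with a common total and −2.58 with quantile normalization. Of 120 counts of called genes, 111 stayed within 1.5 times the reported one. Without single libraries, genes higher ran from 1611 to 2428 and antiviral genes lower from 13 to 24, both lowest without Epor-eGFP+ library 0, and modification and partner genes lower from 2 to 4. Interferon signalling genes higher ran from 0 to 1 without single libraries, and were 1 with a common total, a common upper quartile, quantile normalization or the replicate block (Il10rb). Antiviral genes higher were 1 with the replicate block (Bst2). Apart from this count and that of interferon signalling genes higher, the block moved no count of calls by over 1.5 times. With a common total, 59.5% of called genes were higher, against 46.3% as reported. The unknown depth limits what can be said of low genes.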
